A study of Rattus norvegicus with 24 samples.

Results

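The genes described here encode the 4 sterol hydroxylases of bile acid synthesis, Cyp7a1, Cyp8b1, Cyp27a1 and Cyp7b1, in rat liver. Members were the probe sets whose platform annotation names 1 of these genes and no other. The rule found 4 probe sets among the 31139 on the array, 1 for each gene. The liver RNA came from 24 male Sprague Dawley rats, 8 weeks old, each hybridised to its own one-colour array, in 4 groups of 6. ANIT stands for alpha-naphthylisothiocyanate, an agent toxic to bile ducts and to hepatocytes of rodents. Rats of the ANIT groups were given 50 mg/kg once into the stomach in corn oil, and rats of the vehicle groups were given corn oil at the same volume of 10 ml/kg. Each treatment had 1 group killed at 24 h, which the labels call the time of peak injury, and 1 group killed at 120 h, which they call the time of repair. All 4 groups were fasted for about 18 h before necropsy and were injected with BrdU, a thymidine analogue, at 100 mg/kg about 2 h before it. The livers were whole tissue, so fewer cells of a type and less RNA per cell cannot be told apart in any value below.

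Bile acids are made from cholesterol in hepatocytes along a classic and an alternative route. Cyp7a1 hydroxylates cholesterol at the 7-alpha position and is the rate-limiting step of the classic route. Cyp8b1 adds the 12-alpha hydroxyl group that turns the product toward cholic acid, Cyp27a1 is a mitochondrial enzyme that oxidises the sterol side chain in both routes and opens the alternative one, and Cyp7b1 hydroxylates the oxysterols of the alternative route. Bile acids returning to the liver bind the nuclear receptor FXR (Nr1h4), which induces the repressor SHP (Nr0b2). SHP lowers transcription of Cyp7a1 and Cyp8b1 by acting on LRH-1 (Nr5a2) and HNF4-alpha (Hnf4a) at their promoters.

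Promoter sequence is shown because both LRH-1 and HNF4-alpha act on these genes by binding DNA near the start. RefSeq promoter windows of the rat assembly GRCr8 were matched for 2 of the 4 genes, Cyp8b1 and Cyp27a1. Cyp7a1 and Cyp7b1 were not matched. The 250 bases before the start are printed 5′ to 3′ on the strand of the gene, with each match to an LRH-1 core in capitals. The Cyp8b1 window is chr8:130457593-130457842 on the minus strand, and the Cyp27a1 window is chr9:83713282-83713531 on the plus strand.
Cyp8b1: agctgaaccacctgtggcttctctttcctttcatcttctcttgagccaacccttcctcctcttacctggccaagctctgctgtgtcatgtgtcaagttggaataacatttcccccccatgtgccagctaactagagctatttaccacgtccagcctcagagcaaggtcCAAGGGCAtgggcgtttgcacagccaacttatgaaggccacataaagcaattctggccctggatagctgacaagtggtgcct
Cyp27a1: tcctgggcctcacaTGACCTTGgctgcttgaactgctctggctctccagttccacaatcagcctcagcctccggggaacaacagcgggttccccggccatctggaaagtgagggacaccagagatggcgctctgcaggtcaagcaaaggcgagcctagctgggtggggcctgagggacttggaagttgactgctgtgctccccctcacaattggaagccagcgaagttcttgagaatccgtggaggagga

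The LRH-1 core searched was CAAGGNCA on both strands. Cyp8b1 held 1 match, on the strand printed, with its first base at -82, counting -1 as the base just before the start. Cyp27a1 held 1 match on the opposite strand, with its first printed base at -236. Of all 33469 rat windows of this length, 5.58% held this core. An HNF4 core (CAAAGTNCA), a D-box bound by clock output factors (TTANGTAA) and a TATA box (TATAAA) had no match in either window, and they occurred in 1.06%, 2.04% and 12.9% of all windows. No match overlapped another. These are matches of letters and not measured binding.

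Values are log2 expression, in which a step of 1 is a doubling, and a change is the ANIT mean minus the vehicle mean of the same time. Changes were tested with limma over 13438 genes, and a gene was called when its Benjamini-Hochberg adjusted p was under 0.05. At 24 h 3 of the 4 hydroxylases were lower after ANIT, where 5.31% of all genes tested were called lower and 12.9% higher. At 120 h limma called 0 of the 4, against 2.02% of all genes in either direction, and 1 of the 4, Cyp8b1, had an unadjusted p under 0.05. The median change over the 4 hydroxylases was -1.25 at 24 h and -0.31 at 120 h, where the median over all genes was 0.0046 and -0.00593.

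**Figure D1:**
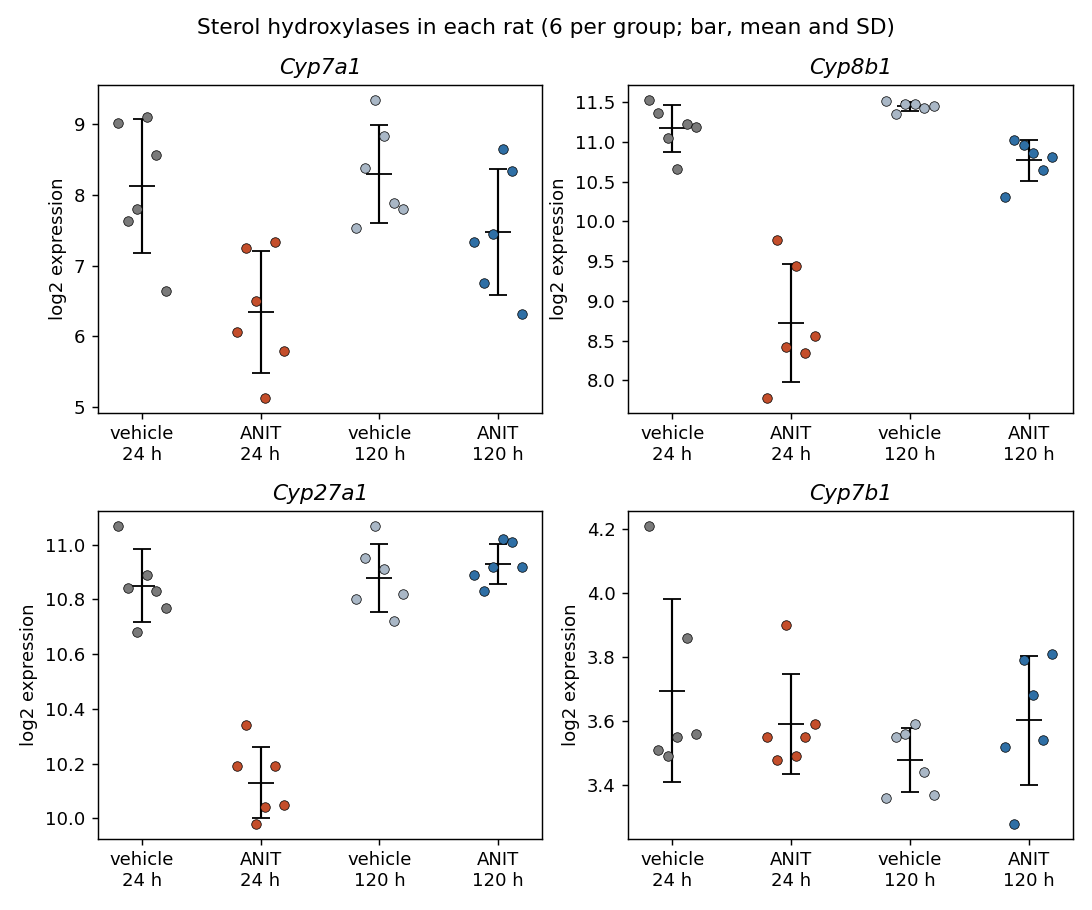
Log2 expression (vertical axis) of each sterol hydroxylase in each of 24 rats, with 1 point per rat, 6 rats per group, and a bar for the mean and SD. At 24 h the ANIT points of Cyp8b1 and Cyp27a1 lie below all vehicle points, those of Cyp7a1 reach from 5.13 to 7.33, and Cyp7b1 stays between 3.28 and 4.21 in every group.

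Cyp7a1, the first step of the classic route, was lower 24 h after ANIT. In vehicle rats at 24 h its lowest, median and highest values were 6.64, 8.18 and 9.10. In ANIT rats at 24 h they were 6.28 at the median, with 5.13 the lowest and 7.33 the highest. The groups overlapped, because vehicle replicate 6, at 6.64, lay below ANIT replicates 2 and 5, while the other 5 vehicle rats lay above every ANIT rat. The change was -1.78 ± 0.44 (SE, 6 rats per group), a 3.43-fold fall that left 29.2% of the vehicle level, with an adjusted p of 0.00569 and a 95% interval from -2.69 to -0.86. At 120 h vehicle values ran from 7.53 through a median of 8.14 to 9.34, and ANIT values from 6.32 through 7.39 to 8.64. There 4 ANIT rats lay below every vehicle rat and 2 vehicle rats above every ANIT rat, and the others lay in a shared range. The change at 120 h was -0.82 ± 0.44 with an interval from -1.74 to 0.09 and an adjusted p of 0.418. The change at 120 h minus that at 24 h was 0.96 ± 0.63 (adjusted p = 0.309), so a difference between the times was not shown for Cyp7a1.

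Cyp8b1, the sterol 12-alpha-hydroxylase, had the largest fitted change of the 4 at 24 h. Vehicle rats at 24 h measured 10.66 at the lowest, 11.21 at the median and 11.53 at the highest. ANIT rats at 24 h measured 7.78, 8.49 and 9.77. Every ANIT rat lay below every vehicle rat, an order that 2.32% of all genes had at 24 h. The change was -2.45 ± 0.23 (SE, adjusted p = 2.08e-08), a 5.47-fold fall that left 18.3% of the vehicle level. The 6 ANIT rats also differed among themselves, with an SD of 0.743 against 0.298 in their vehicle group. At 120 h vehicle values lay within 11.35 and 11.51 with a median of 11.47, and ANIT values within 10.31 and 11.02 with a median of 10.84. The groups again did not overlap, which 1.58% of genes showed in that direction at 120 h. The change of -0.68 ± 0.23 left 62.4% of the vehicle level, with an interval from -1.15 to -0.22 and an adjusted p of 0.133 (unadjusted 0.00572). When the fit held the 120 h groups and no others, the adjusted p of the same change was 0.0082, with 1.31% of genes called in that fit. Cyp8b1 had an SD of 0.0549 among vehicle rats at 120 h, and the 4-group fit pools the spread of that group with the wider spread at 24 h. The change at 120 h minus that at 24 h was 1.77 ± 0.32 (adjusted p = 5e-04), so the change was smaller at 120 h.

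Cyp27a1, the mitochondrial side chain hydroxylase, changed less but differed little between rats. Its vehicle values at 24 h were 10.68, 10.83 and 11.07 at the lowest, median and highest, and its ANIT values 9.98, 10.12 and 10.34. The groups did not overlap, and the gap between them was wider than the SD of either, 0.133 for vehicle and 0.130 for ANIT rats. The change was -0.71 ± 0.08 (adjusted p = 6.21e-07), a 1.64-fold fall to 60.9% of the vehicle level. At 120 h vehicle rats ran from 10.72 through 10.87 to 11.07 and ANIT rats from 10.83 through 10.92 to 11.02. The ANIT range lay within the vehicle range, and the change of 0.05 ± 0.08 had an interval from -0.12 to 0.22 (adjusted p = 0.806). The change at 120 h minus that at 24 h was 0.77 ± 0.12 (adjusted p = 8.38e-05). Of the 4 hydroxylases 2, Cyp8b1 and Cyp27a1, were therefore called for a difference between times, both upward, where 3.33% of all genes were called upward and 11% downward.

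Cyp7b1, the oxysterol 7-alpha-hydroxylase of the alternative route, was not called at either time. Its values were low in every group. They ran from 3.49 to 4.21 in vehicle and from 3.48 to 3.90 in ANIT rats at 24 h, and from 3.36 to 3.59 and from 3.28 to 3.81 at 120 h. All ranges overlapped. The probe set was above the brightest of 23 nonspecific control probe sets on 24 of 24 arrays, by 0.273 to 1.13, and those controls lay between 2.34 and 3.10. The change was -0.10 ± 0.12 at 24 h, with an interval from -0.34 to 0.14 (adjusted p = 0.57), and 0.12 ± 0.12 at 120 h (adjusted p = 0.661). A probe set this close to the nonspecific controls can understate a change, so these intervals describe this probe set.

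Corn oil groups of the 2 times were compared to see whether the baseline of the hydroxylases moved. Vehicle rats at 120 h minus vehicle rats at 24 h differed by 0.17 ± 0.44 for Cyp7a1, 0.28 ± 0.23 for Cyp8b1, 0.03 ± 0.08 for Cyp27a1 and -0.22 ± 0.12 for Cyp7b1. By limma 0 of the 4 were called, 0 had an unadjusted p under 0.05, and 0.00744% of all genes, 1 gene, were called. Adjusted p-values of the 4 hydroxylases lay between 0.438 and 0.863. Some clock output genes did differ in level between the vehicle groups. Vehicle values of Dbp ran from 4.81 to 6.02 at 24 h and from 6.03 to 6.39 at 120 h. Vehicle means at 24 h and 120 h were 6.06 and 6.71 for Per2, 9.42 and 8.85 for Npas2, and 8.63 and 8.69 for Tef. The part of such shifts in the differences between times was not tested.

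Whether the hydroxylases changed by different amounts was tested on the difference between 2 genes within each array, where a shift of the whole array cancels. Exact two-sided permutation tests over 6 and 6 rats were run for 6 pairs at each time, with adjustment over the 12 tests, and 0.0022 is the smallest p they can give. At 24 h the change of Cyp8b1 minus that of Cyp27a1 was -1.74 and minus that of Cyp7b1 was -2.35, and the change of Cyp27a1 minus that of Cyp7b1 was -0.61 (each exact p = 0.0022, adjusted 0.0052). The change of Cyp7a1 minus that of Cyp7b1 was -1.68 (adjusted p = 0.022). Between Cyp7a1 and Cyp8b1, the enzymes of the classic route, the difference of 0.67 at 24 h was not beyond the spread (exact p = 0.31, adjusted 0.37), and -1.06 between Cyp7a1 and Cyp27a1 missed the threshold (adjusted p = 0.084). At 120 h the change of Cyp8b1 minus that of Cyp27a1 was -0.73 and minus that of Cyp7b1 was -0.80, again without overlap of the rats (each adjusted p = 0.0052). The 3 pairs with Cyp7a1 and the pair of Cyp27a1 and Cyp7b1 were not called at 120 h, with adjusted p-values from 0.084 to 0.76. Without the 6 arrays of lowest SD, described below, the pair of Cyp7a1 and Cyp7b1 was not called at 24 h (-1.25, adjusted p = 0.14) and was called at 120 h (-1.17, adjusted p = 0.041), as was Cyp7a1 with Cyp27a1 at 120 h (-1.12, adjusted p = 0.041). Leaving out ANIT replicate 4 at 120 h likewise brought both of these 120 h pairs under the threshold, at -1.17 (adjusted p = 0.037) and -1.09 (adjusted p = 0.039). Leaving out vehicle replicate 6 at 24 h brought Cyp7a1 with Cyp27a1 at 24 h to -1.34 (adjusted p = 0.037).

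Technical measures moved with some of these groups. The log2 ratio of 3′ to 5′ signal of the beta-actin control, which rises where RNA or cDNA is shorter, was 2.77 to 2.91 in vehicle and 2.98 to 3.18 in ANIT rats at 24 h, without overlap, and 2.76 to 2.98 and 2.48 to 2.93 at 120 h. With this ratio as a covariate the change of Cyp7a1 at 24 h was -1.87 ± 0.67 (adjusted p = 0.104) and was no longer called, while Cyp8b1 at -2.34 (adjusted p = 8.78e-05) and Cyp27a1 at -0.77 (adjusted p = 0.000264) remained called. For Cyp7a1 the change was no smaller than the -1.78 ± 0.44 of the main fit, and the SE was larger. Since the ratio did not overlap between the 24 h groups, it and ANIT cannot be fully told apart there. The 6 arrays whose values had the lowest SD were vehicle replicates 3, 4 and 5 at 24 h and ANIT replicates 4, 5 and 6 at 120 h. Without them the change of Cyp7a1 at 24 h was -1.41 ± 0.50 (adjusted p = 0.0781), Cyp8b1 was at -2.64 (adjusted p = 6.82e-06) and Cyp27a1 at -0.76 (adjusted p = 4.27e-05). The count of lower hydroxylases at 24 h was thus 2 of 4 under either setting and 3 of 4 with the level of the spiked controls as a covariate. Of all 13438 genes, 907 were called at 24 h in either direction with the beta-actin ratio and 1554 without the 6 arrays. With the spiked control level 2700 were called, against 2451 in the main fit. Deviations of the hydroxylases from their group means correlated with the spiked control level, the beta-actin ratio and the array SD at r between -0.16 and 0.24 over 24 rats.

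In liver these genes are expressed mainly in hepatocytes. The mean level of 7 measured hepatocyte markers, albumin (Alb) and transthyretin (Ttr) among them, lay between 12.65 and 12.88 on every array. In the 24 h groups it ran from 12.82 to 12.88 with vehicle and from 12.74 to 12.87 with ANIT. In the 120 h groups it ran from 12.77 to 12.83 with vehicle and from 12.65 to 12.75 with ANIT. Every ANIT rat thus lay below every vehicle rat in this mean at 120 h. The 1.58% of all genes with that order are single genes, and no share was computed for means of 7 genes. Limma called 0 of the 7 markers at 120 h, with 2 at an unadjusted p under 0.05. Their changes ran from -0.38 for Apoa1 to 0.02 for Apob, with Alb at -0.00068 and Ttr at -0.04. At 24 h 1 of the 7 was higher (Fgb, a fibrinogen chain) and 1 lower (Ahsg, a plasma glycoprotein). Over all genes 12.9% were called higher and 5.31% lower at 24 h, and the list counts here and below are to be read beside these shares. Cyp7a1 is textbook pericentral, and of 7 measured pericentral markers 3 were lower at 24 h (Glul -0.37, Cyp2e1 -0.58, Oat -0.79) and 1 was higher (Cyp1a2 0.85). The mean over that list was 8.50 to 8.71 in vehicle and 8.29 to 8.54 in ANIT rats. Of 9 periportal markers 1 was lower and 1 higher. Neutrophil markers rose at 24 h for 3 of 5 (S100a8, S100a9 and Il1r2), with list means of 4.58 to 5.24 in vehicle and 5.17 to 5.70 in ANIT rats. Of 7 stellate cell markers 2 were lower at 24 h (Lrat -1.25 and Reln -0.52), with list means of 7.10 to 7.34 in vehicle and 6.74 to 7.15 in ANIT rats. Of 6 lymphocyte markers 2 were lower (Cd8a and Cd79b), with list means of 5.38 to 5.63 and 5.20 to 5.39. Macrophage markers were higher for 2 of 9 (Lyz2 and C1qb) and Kupffer cell markers for 1 of 3 (Cd163), and of 5 endothelial markers 1 was higher (Lyve1) and 2 lower (Stab2 and Kdr). Bile duct markers were not called at 24 h (0 of 6, also 0 at an unadjusted p under 0.05 by limma). At 120 h, where 2.02% of all genes were called in either direction, 2 of 6, Krt19 and Cftr, were higher. The bile duct list means at 120 h were 4.64 to 4.87 in vehicle and 4.90 to 5.26 in ANIT rats. The pericentral marker Cyp1a2, higher at 24 h, was lower at 120 h (-0.85 ± 0.12, adjusted p = 0.000273). The Kupffer cell marker Cd163 was higher at 120 h too (0.43 ± 0.10, adjusted p = 0.0239). No marker of the remaining lists was called at 120 h. The part of these shifts in the hydroxylase results was not tested.

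The downstream enzymes of the same pathway were lower at 24 h in part. Of 12 other bile acid enzymes, which shape the ring, shorten the side chain and attach taurine or glycine, 6 were lower, 0 higher and 6 not called, with a median change of -0.34 against 0.0046 over all genes. Amacr, the racemase of the side chain, fell by 0.72 (± 0.11, adjusted p = 2.25e-05). Its vehicle values of 10.98, 11.27 and 11.50 at the lowest, median and highest lay above all ANIT values of 10.37, 10.53 and 10.67. Slc27a2, an acyl-CoA synthetase and fatty acid transporter, fell by 0.51 (± 0.07), and Akr1d1, the 5-beta-reductase of the ring, by 0.49 (± 0.12). Hsd3b7, which oxidises the 3-beta hydroxyl group after the 7-alpha step, fell by 0.47 (± 0.15). Abcd3, a peroxisomal transporter, fell by 0.34 and Baat, which joins bile acids to taurine and glycine, by 0.33 (each ± 0.07).

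The enzymes not called at 24 h included the acyl-CoA synthetase Slc27a5 (-0.02 ± 0.11), Scp2 (0.07 ± 0.09), Hsd17b4 (-0.16 ± 0.07), Acot8 (0.08 ± 0.14) and Akr1c14 (-0.20 ± 0.08). Acox2, the branched-chain oxidase of the side chain, had a large but uncertain change of -1.16 ± 0.56 (adjusted p = 0.16), with vehicle rats from 6.72 to 9.78 and ANIT rats from 6.05 to 8.56. At 120 h limma called 0 of the 12 enzymes and gave 3 an unadjusted p under 0.05, with a median change of -0.03. In Amacr every ANIT rat still lay below every vehicle rat at 120 h (-0.36 ± 0.11, adjusted p = 0.0819), as in 1.58% of all genes. The difference between times was called for 3 of 12, all upward, in Akr1d1 (0.78 ± 0.17), Slc27a2 (0.48 ± 0.10) and Baat (0.40 ± 0.10). With the beta-actin ratio as a covariate 3 of the 12 were called lower at 24 h, and without the 6 arrays of lowest SD 5.

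**Figure D2:**
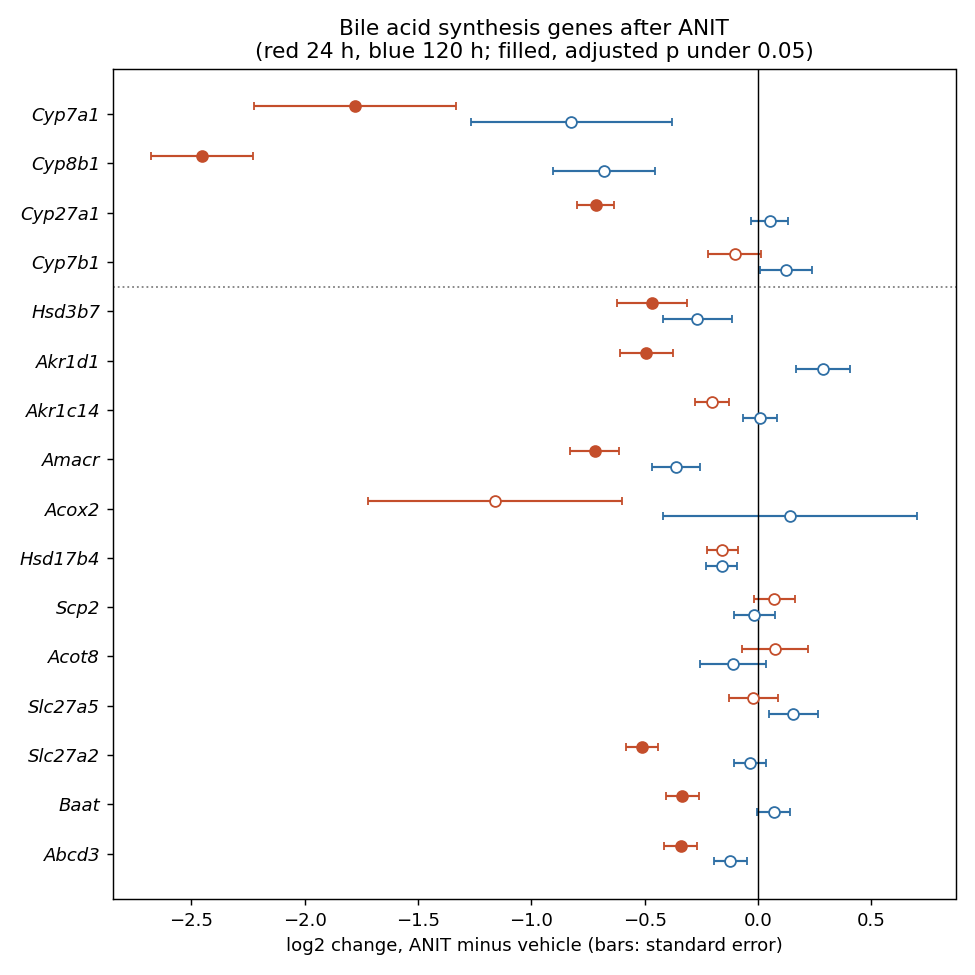
Log2 change with its SE, ANIT minus vehicle (horizontal axis), for the 4 sterol hydroxylases above the dotted line and 12 other bile acid enzymes below it. Red is 24 h, blue is 120 h, and filled points have an adjusted p under 0.05; at 24 h 3 hydroxylases and 6 other enzymes are filled, all to the left of 0, and at 120 h none is.

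Among 4 other enzymes that hydroxylate sterols, Ch25h, the cholesterol 25-hydroxylase, was higher at 24 h by 0.72 ± 0.15 (adjusted p = 0.00134). Its vehicle values ran from 4.58 to 5.39 and its ANIT values from 5.19 to 6.13, so the groups overlapped. Cyp3a2, a drug-metabolising cytochrome, fell by 0.68 (± 0.09, adjusted p = 9.5e-06), with no overlap between vehicle rats at 12.42 to 12.67 and ANIT rats at 11.52 to 12.05. Cyp39a1, an oxysterol 7-alpha-hydroxylase, at -0.29 ± 0.15, and Cyp46a1, the 24-hydroxylase, at -0.31 ± 0.16, were not called. At 120 h limma called 0 of these 4, with 0 at an unadjusted p under 0.05.

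Of 5 measured electron donors of the hydroxylases 1 was higher and 1 lower at 24 h, where 12.9% and 5.31% of all genes were. With the beta-actin ratio as a covariate 0 donors were higher and 1 lower. Fdx1, the mitochondrial ferredoxin that supplies Cyp27a1, fell by 0.87 (± 0.13, adjusted p = 2.05e-05), from 9.77 to 10.28 in vehicle rats to 9.03 to 9.41 in ANIT rats without overlap. Cyb5b, a cytochrome b5 of the outer mitochondrial membrane, rose by 0.83 ± 0.20. Por, the reductase that serves microsomal cytochromes such as Cyp7a1 and Cyp8b1, had changes of 0.64 ± 0.27 at 24 h and -0.75 ± 0.27 at 120 h, neither of them called, and the difference between the times was called (-1.39 ± 0.38, adjusted p = 0.0145). Cyb5r3, cytochrome b5 reductase, was the 1 donor of 5 measured that was lower at 120 h, by -0.62 ± 0.14 (adjusted p = 0.0175).

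Regulators of bile acid synthesis were measured for 16 of 18 listed genes. At 24 h 3 were higher, 2 lower and 11 not called, with a median change of 0.05, where 12.9% of all genes were called higher and 5.31% lower. Nr0b2, the SHP repressor, had vehicle values of 5.79, 6.54 and 7.79 at 24 h and ANIT values of 8.27, 8.75 and 9.79, at the lowest, median and highest. Every ANIT rat lay above every vehicle rat, as in 5.54% of all genes at 24 h, and the change was 2.35 ± 0.25 (adjusted p = 1.96e-07). At 120 h its values were 6.82 to 7.42 in vehicle and 6.92 to 7.31 in ANIT rats and overlapped, with a change of 0.04 ± 0.25. The difference between times was -2.32 ± 0.35 (adjusted p = 9e-05). Nr1h4, the bile acid receptor FXR, ran the other way. It had vehicle values of 8.12, 8.34 and 8.75 at 24 h and ANIT values of 6.91, 7.12 and 8.01, without overlap, a change of -1.16 ± 0.20 at 24 h (adjusted p = 0.000142) and one of 0.01 ± 0.20 at 120 h. The difference between times was 1.17 ± 0.28 (adjusted p = 0.00646).

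The other regulators called at 24 h were Jun, an immediate-early transcription factor (1.04 ± 0.23), Hnf4a (0.31 ± 0.09) and Nr1i3, the nuclear receptor CAR (-0.95 ± 0.25). Nr5a2, encoding LRH-1, had a change of -0.13 ± 0.12 (adjusted p = 0.485) and Fgfr4, the hepatic receptor of the intestinal hormone FGF15, one of 0.15 ± 0.15 (adjusted p = 0.495). At 120 h limma called 0 of the 16, with 2 at an unadjusted p under 0.05. The smallest p at 120 h was that of the nuclear receptor Nr1i2 (-0.48 ± 0.15, adjusted p = 0.0934). There every ANIT rat lay below every vehicle rat, as in 1.58% of all genes. Mean Nr1i2 at 24 h and 120 h was 8.121 and 8.055 in ANIT rats and 7.931 and 8.539 in vehicle rats, so the vehicle level differed more between times. At 24 h its change was 0.19 ± 0.15 and was not called. With the beta-actin ratio as a covariate 1 regulator was called higher and 2 lower at 24 h, and with the spiked control level 3 and 4. Of 6 measured FXR target genes 3 were higher at 24 h and 0 lower, namely Nr0b2, the bile salt export pump Abcb11 (0.45 ± 0.11) and the phospholipid transporter Abcb4 (0.76 ± 0.13). With the beta-actin ratio as a covariate 2 of the 6 were called higher, as were 2 without the 6 arrays of lowest SD. The 3 not called were Slc51a (-0.02), Mafg (0.14) and Fetub (0.04). Probe sets of Slc51a, Mafg and Nr5a2 were dim, at mean levels of 4.63, 4.92 and 5.14, and can understate a change.

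Genes for cholesterol supply and storage were measured for 6 of 11. At 24 h Insig1 (1.47 ± 0.15) and Srebf2 (0.99 ± 0.18), which belong to the sterol-sensing system that controls cholesterol synthesis, were higher, and Insig2 was lower (-0.68 ± 0.10). Insig2 was also the 1 gene of this list that was lower at 120 h (-0.38 ± 0.10, adjusted p = 0.0375). Scarb1 at 120 h (-0.53 ± 0.16, adjusted p = 0.0887) and Stard5 at 24 h (0.14 ± 0.07, adjusted p = 0.164) were not called. Of 4 cytokines known to repress Cyp7a1 or Cyp8b1 in cultured cells or rodents, Il1b, Tnf, Il6 and Tgfb1, limma called 0 at either time, with 0 at an unadjusted p under 0.05. Probe sets of Il6, Tnf and Tgfb1 were dim, at mean levels of 3.95, 4.30 and 4.84, and can understate a change, as for Cyp7b1. For Il6 at 24 h 3 ANIT rats lay above every vehicle rat. Of 14 measured clock output genes 2 were higher at 24 h (Bhlhe40 0.65, Per1 0.52) and 3 lower. Those lower were Tef (-1.31 ± 0.13) and Hlf (-1.03 ± 0.16), which with Dbp form the family that binds D-box sites, and Npas2 (-1.15 ± 0.22). Dbp itself had a change of -0.20 ± 0.17 (adjusted p = 0.44).

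Rats of 1 group differed far more in Cyp7a1 than in most genes. The SD between rats within groups was 0.851 for Cyp7a1, rank 21 of 13438 genes, so that 0.149% of genes varied more. Cyp8b1 had an SD of 0.421, exceeded by 6.14% of genes, and Cyp7b1 one of 0.198, exceeded by 68.0%. Cyp27a1 lay near the other end at 0.118, exceeded by 95.9% of genes, and the median of all genes was 0.236. This spread bears on the results above, since the SE of a change was 0.44 for Cyp7a1 and 0.08 for Cyp27a1 with the same number of rats.

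**Figure D3:**
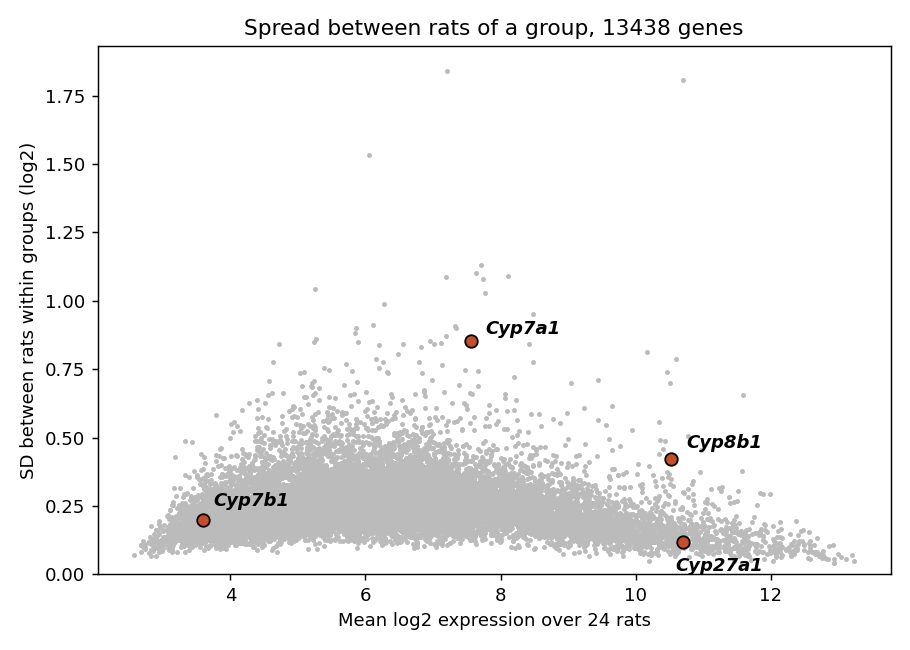
SD between rats within groups (vertical axis, log2) against mean log2 expression over 24 rats (horizontal axis), with 13438 genes in grey and the 4 sterol hydroxylases marked. Cyp7a1 stands near the top at 0.851, Cyp8b1 at 0.421, and Cyp27a1 near the bottom at 0.118.

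Despite this contrast in spread, Cyp7a1 and Cyp27a1 varied together among rats of the same group. The deviations of the 24 rats from their group means correlated with r = 0.70 (permutation within groups, p = 0.0004, adjusted over 6 pairs 0.0024) and rho = 0.71 (p = 0.00054, adjusted 0.0032). Without the 2 rats farthest from the median r was 0.70. Vehicle replicate 1 at 24 h had deviations of 0.883 for Cyp7a1 and 0.227 for Cyp27a1, and vehicle replicate 3 at 120 h had 1.04 and 0.195. ANIT replicate 2 at 120 h had deviations of -0.714 and -0.105. Other rats far from the mean in Cyp7a1 lay near it in Cyp27a1, such as vehicle replicate 6 at 24 h (-1.48 and -0.079) and ANIT replicate 6 at 120 h (-1.15 and -0.01). By r, the relation was called among vehicle rats (r = 0.74, adjusted p = 0.03), among 120 h rats (r = 0.79, adjusted p = 0.0095), without the 6 arrays of lowest SD (r = 0.81, adjusted p = 0.0083) and after the spiked control level was regressed out (r = 0.71). It had the same sign without passing the threshold among ANIT rats (r = 0.67, adjusted p = 0.14) and among 24 h rats (r = 0.64, adjusted p = 0.21). Among vehicle rats the rho of 0.71 did not pass (permutation p = 0.019, adjusted 0.11). The 2 genes share arrays, and no label for batch or time of day is given in the sources used here. Of the other 5 pairs, Cyp7a1 and Cyp8b1 had r = -0.05 (permutation p = 0.83, adjusted 0.94), Cyp8b1 and Cyp27a1 0.20, and Cyp8b1 and Cyp7b1 0.02. Cyp7b1 had r = 0.34 with Cyp7a1 and 0.36 with Cyp27a1 (each permutation p adjusted to 0.31), and none of the 5 was called.

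Each hydroxylase was also set against Nr0b2, Nr1h4, Nr5a2, Hnf4a and Dbp, which made 20 relations. Cyp8b1 with Nr0b2 was the 1 relation that passed, at r = -0.69 over 24 rats (permutation p = 0.0022, adjusted over 20 relations 0.045). Its rho of -0.57 did not pass (permutation p = 0.014, adjusted 0.27), and r was -0.55 without the 2 rats farthest from the median. In ANIT rats at 24 h, replicate 1 had the highest Nr0b2 (9.79) and the lowest Cyp8b1 (7.78), and replicate 2 had the lowest Nr0b2 (8.27) and the highest Cyp8b1 (9.77). In vehicle rats at 24 h, replicate 4 had the highest Nr0b2 (7.79) and the lowest Cyp8b1 (10.66). Replicate 1 of that group had the lowest Nr0b2 (5.79) and the highest Cyp8b1 (11.53). The sign was negative in all 6 alternatives run, with r from -0.88 to -0.43, but none passed, with adjusted p-values from 0.072 to 0.63. Among vehicle rats r was -0.88 with all 12 and -0.29 without the 2 farthest, so that value rests on those rats. Cyp7a1 with Nr0b2 had r = -0.02 (permutation p = 0.93, adjusted 0.93).

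**Figure D4:**
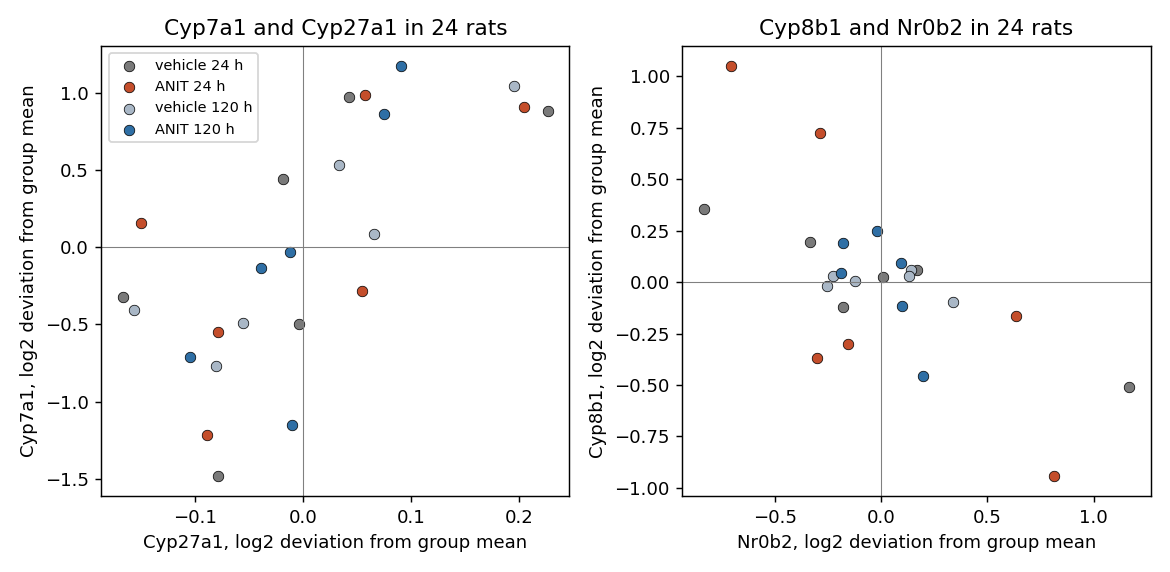
Log2 deviations of 24 rats from their group means, for Cyp7a1 against Cyp27a1 (left) and Cyp8b1 against Nr0b2 (right), with 1 point per rat coloured by group. The left points rise together (r = 0.70), and the right points fall (r = -0.69), with rats of the 24 h groups at both ends.

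The genes most like each hydroxylase were ranked by r of these deviations over 24 rats, as a description among 13438 genes. For Cyp7a1 they were Tsc22d3 (0.79), Fry (0.75), Cyp27a1 (0.70), Zc3h3 (0.67) and Acly (0.67), and the most opposite were Vav1 (-0.72), Angptl4 (-0.69) and Nat10 (-0.67). For Cyp27a1 they were Fry (0.74), Usp2 (0.72), Cyp7a1 (0.70), Abt1 (0.69) and Cimip4 (0.67). Cyp7a1 and Cyp27a1 thus stood among the 5 most similar genes of each other, and Fry was among the 5 of both. For Cyp8b1 the list was Kng2l1 (0.84), Hacl1 (0.82), Top1 (0.79), Acot2 (0.78) and Acsl1 (0.77), and the most opposite were Kcnk5 (-0.76), Ak4 (-0.75) and Rnd1 (-0.72). For Cyp7b1 it was Mtap (0.77), Arg1 (0.74), Crlf3 (0.71), Fkbp5 (0.71) and Lrrc14 (0.69).

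Ranked by the 24 values themselves, which hold the change after ANIT, Cyp8b1 was most like Acsl1 (r = 0.97), Hacl1 (0.97) and Cpt1a (0.96). Acsl1 activates long-chain fatty acids, Hacl1 is a peroxisomal lyase of fatty acid alpha-oxidation, and Cpt1a carries long-chain fatty acids into mitochondria. Cyp27a1 was most like Slc27a2 (0.95), Coq8a (0.94) and Pcmtd1 (0.94) on that measure. For Slc27a2 the r of deviations was 0.55, and for Coq8a it was 0.23, so much of these values lay between groups. Cyp7a1 was most like Tsc22d3 (0.86), a leucine zipper protein, then Blm (0.80) and Tef (0.77).

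Male-predominant and growth hormone dependent liver genes were measured for 13 of 14. At 24 h 5 were lower and 1 higher, with a median change of -0.25, and the largest change was that of Hsd17b2, a steroid dehydrogenase, at -3.25 ± 0.30. At 120 h Cyp2c11, the main male cytochrome of rat liver, was lower by -1.19 ± 0.20 (adjusted p = 0.00183), with vehicle rats at 11.86 to 12.13 and ANIT rats at 9.64 to 11.53 without overlap. Cyp8b1 and Cyp2c11 were both without overlap at 120 h, but at 24 h Cyp2c11 had a change of -0.16 ± 0.20 and was not called. Lower values without overlap at both times were not particular to Cyp8b1, since Amacr and Insig2 had them too. The other measured cytochromes of this list, Cyp2a2 (-0.73 ± 0.08), Cyp3a2 (-0.68 ± 0.09) and Cyp2c13 (-0.56 ± 0.10), were called lower at 24 h. At 120 h their changes of 0.04, 0.07 and 0.11 were not called, and the difference between times was called upward for each.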

How the data were processed

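Total RNA from whole liver of 24 rats was amplified, labelled with biotin and hybridised to one-colour arrays, per the labels' protocols. The authors deposited 1 table of log2 values with a row for each probe set, and the submitters' processing notes name RMA and Partek, with versions and settings not given here. The values were used as deposited, with no further normalization, and ran from 2.34 to 13.5. Such processing compresses changes of dim probe sets, and the number of arrays limits the precision. Genes were named from the platform annotation: 19068 probe sets named 1 gene, 573 several and 11498 none, and no symbol was renamed when checked against a current rat gene table. For each of 13438 genes the probe set of highest mean was kept.

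A cell-means model of 4 groups was fitted with limma 3.58.1 in R 4.3.3, with Benjamini-Hochberg adjustment over all genes and calls at an adjusted p under 0.05. The script was tested on simulated data. Differences between members used exact permutation tests, and correlations used 100000 permutations within groups. Groups came from the labels. Replicate numbers follow accession order and pair no rats. The labels give each rat its own identity, so replicates are animals. No batch label was given. Members and gene lists were chosen with earlier results of these data known. Named genes were the members, the listed bile acid enzymes, other oxysterol hydroxylases, electron donors and named regulators, of each other pathway list the 4 genes of smallest p at 24 h and the 2 at 120 h, and the genes most like each member. Markers, Slc51a, Per1 and Dbp are named outside that rule as list members. Listed genes without a one-gene probe set were not analysed here. Promoter windows are RefSeq's for GRCr8. Alternatives covered covariates, normalization, features, filter, samples, spread and leaving out each rat.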

Additional observations from a re-analysis of the deposited data

Results flagged for a closer look

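Of 36 combinations of a gene and a group checked for 1 rat far from the others, where chance gives about 1 in 20, a pair stood out. Cyp7b1 in ANIT replicate 3 at 24 h was 3.90, while the other 5 rats lay between 3.48 and 3.59. Nr1h4 in ANIT replicate 2 at 24 h was 8.01, while the other 5 lay between 6.91 and 7.15. That second rat also had the highest Cyp8b1 (9.77) and Cyp27a1 (10.34) and the lowest Nr0b2 (8.27) of its group.

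The change after ANIT differed between times, by the interaction contrast in limma, for 4 of the 9 genes checked here, the 4 hydroxylases with Nr0b2, Nr1h4, Nr5a2, Hnf4a and Fgfr4. Other listed genes were not part of this check. The change at 120 h minus that at 24 h was 1.77 for Cyp8b1, 0.77 for Cyp27a1 and 1.17 for Nr1h4, all 3 of which were lower at 24 h and not called at 120 h, and -2.32 for Nr0b2, which was higher at 24 h and not called at 120 h.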

How the results depend on the processing

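The changes of Cyp8b1 and Cyp27a1 at 24 h were called under all 12 alternatives and with each of 24 rats left out. Cyp7a1 at 24 h was not called with the beta-actin ratio as a covariate (-1.87) or without the 6 arrays of lowest SD (-1.41), and ran from -2.07 to -1.53 with 1 rat left out. Cyp8b1 at 120 h was called when the fit held its groups and no others (-0.68), and over all alternatives its adjusted p ran from 0.0082 to 0.315. The vehicle contrast of Cyp27a1 changed sign under quantile normalization (-0.00734) and without the 6 arrays (-0.0144), and ran from -0.00575 to 0.0785 with 1 rat left out. That of Cyp7a1 ran from -0.12 to 0.37. None of these was called, and the cause was not tested.

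Between members, Cyp7a1 against Cyp8b1 at 120 h was 0.00696 by medians and -0.36 to 0.10 with 1 rat left out. Without the 6 arrays, Cyp7a1 against Cyp7b1 was -1.25 at 24 h and -1.17 at 120 h, and Cyp7a1 against Cyp27a1 at 120 h was -1.12. With 1 rat left out, Cyp7a1 against Cyp27a1 ran from -1.34 to -0.84 at 24 h and from -1.09 to -0.65 at 120 h, and Cyp7a1 against Cyp7b1 at 120 h from -1.17 to -0.68. Among correlations, Cyp7a1 with Cyp27a1 was 0.64 in 24 h rats and 0.67 in ANIT rats. Cyp8b1 with Cyp27a1 was -0.07 in 120 h rats, and Cyp7a1 with Cyp8b1 0.05 without the 6 arrays. Cyp8b1 with Cyp7b1 was -0.10 without them and -0.22 in ANIT rats. Cyp27a1 with Cyp7b1 was 0.72 in vehicle rats (adjusted p = 0.03 by permutation) and -0.15 in ANIT rats. In vehicle rats its rho of 0.55 did not pass (adjusted p = 0.19 by permutation), and r was 0.44 without the 2 rats farthest from the median.

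The uncalled relations with regulators that changed sign did so as follows. With the control level removed, Cyp27a1 with Dbp was -0.03. In 24 h rats, Cyp7a1 with Hnf4a was -0.08 and Cyp7b1 with Nr1h4 0.11. In 120 h rats, Cyp7a1 was at 0.20 with Nr0b2 and -0.14 with Nr1h4, Cyp8b1 at 0.09 with Nr5a2 and 0.05 with Dbp, Cyp27a1 at 0.15 with Nr0b2, -0.49 with Nr1h4 and -0.35 with Dbp, and Cyp7b1 at -0.33 with Dbp. Without the 6 arrays, Cyp7a1 with Hnf4a and Cyp27a1 with Dbp were each -0.03. In vehicle rats, Cyp7a1 was at 0.15 with Nr0b2, -0.16 with Nr1h4 and -0.14 with Dbp, Cyp8b1 at 0.30 with Hnf4a and 0.52 with Dbp, Cyp27a1 at -0.18 with Nr1h4, and Cyp7b1 at 0.10 with Nr1h4 and 0.00 with Nr5a2. In ANIT rats, Cyp27a1 with Dbp was -0.07.

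Genes called at 24 h numbered 2451, and 907 to 3687 under alternatives. At 120 h they numbered 272, with 143 to 674 under alternatives and 152 to 343 with 1 rat left out. For the difference between times the count was 1924, with 438 to 2688 and 1430 to 3148. Between vehicle groups it was 1, with 0 to 149 and 1 to 175. The filter on dim genes removed Cyp7b1 and gave it no value, and fitting the groups of the contrast alone does not apply to the difference between times. No paired analysis was possible because replicate numbers follow accession order and the labels give each rat its own identity.

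Alternatives of the correlations other than the 24 h and 120 h rats, and those of the list counts, were chosen after seeing the data.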

Other observations

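The spread of Cyp8b1 differed between groups, with an SD of 0.743 in ANIT rats at 24 h and 0.0549 in vehicle rats at 120 h, while that of Cyp27a1 was 0.130 and 0.125. Among the 6 arrays of lowest SD, the 3 vehicle rats at 24 h had a mean Cyp7a1 of 8.49, and the other 3 vehicle rats at 24 h had 7.76. The 3 ANIT rats at 120 h on such arrays had 7.77, and the other 3 had 7.18. For Cyp27a1 the corresponding means were 10.80 and 10.89 at 24 h, and 10.98 and 10.88 at 120 h.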
